A study of Mus musculus with 12 samples.

Results

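Digestive enzyme genes of the pancreatic acinar cell and genes of the Reg family were described in mouse pancreatic tumors of old and young hosts. The members were taken by name: the Reg genes Reg1, Reg2, Reg3a, Reg3b and Reg3g, and the enzyme genes Prss2, Cpa1, Ctrb1, Cela1 and Pnlip, 10 of the 47643 genes in the deposited tables. All 10 had counts in at least some libraries, and 4 of them (Reg1, Reg3b, Reg3g and Cela1) passed the filter on low counts and were tested. The Old tumor group and the Young tumor group held 6 libraries each, every library made from a piece of pancreatic tumor grown from KPC4662, a mouse line of pancreatic ductal adenocarcinoma labelled as epithelial. A single tumor line therefore served both groups, and the groups differed by the labelled age of the host. The sources used here give no age in weeks, strain, sex or route of implantation, and do not say that the pieces come from separate mice. The p-values therefore measure the spread between these pieces, which may be technical.

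Acinar cells of the exocrine pancreas make digestive enzymes as inactive zymogens, under control of the PTF1 transcription factor complex. Reg proteins are small secreted proteins of the C-type lectin fold. Reg1 and Reg2 are made by normal acinar cells, whereas the Reg3 genes are low in the resting pancreas and are known to be induced in acinar cells by pancreatitis, in part through cytokines that act on the transcription factor STAT3. Reg3b and Reg3g are also antibacterial proteins of the gut epithelium. The enzyme transcripts were read as a measure of pancreas adjoining the tumor and the Reg transcripts, foremost the Reg3 genes, as a measure of the response to injury. The cell of origin of either was not measured. Not every member kept to this split, as given below. Cela1 ran apart from the other enzymes, Reg1 varied with Reg3b and Reg3g, and Reg3a was found mainly in the pieces richest in Ctrb1.

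The libraries held between 17754600 and 24097600 counts. The labelled epithelial identity was met in every library, with the summed level of Krt19, Krt8, Krt18, Epcam and Cdh1 between 4084 and 6518 CPM (counts-per-million of the scaled library size) in old and between 4673 and 8075 CPM in young tumors. The fibroblast gene list (Col1a1, Dcn and Pdgfra) and the leukocyte list (Ptprc, Cd68 and Cd3e) were detected in all 12 libraries too, so the pieces held RNA of other cells. The fibroblast genes summed to 432 to 3354 CPM in old and 484 to 1291 CPM in young tumors, with all 3 above 0 in log2 fold change (median 0.95) and none past the threshold with edgeR, and the leukocyte genes to 59.8 to 119 CPM in old and 59.2 to 101 CPM in young tumors. Old tumor 1 was the highest library in both lists. Old tumor 1 and Old tumor 4 lay farthest out on the first principal component of all tested genes (at -55.0 and 41.7), and Young tumor 2 on the third (53.5). In bulk RNA, fewer cells of a type and less RNA per cell cannot be told apart.

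The 5 Reg members lie in a tandem cluster on chromosome 6 of the mouse genome (GRCm38, the assembly of mm10). With Reg3d, the sixth gene of the cluster, they span 98.2 kb from 78370657 to 78468872 in the order Reg3b, Reg3d, Reg3a, Reg2, Reg1 and Reg3g, and no annotated gene overlaps any of the 5. Prss2 and Cpa1 lie elsewhere on chromosome 6 (41521787 to 41525079 and 30639218 to 30645363), Ctrb1 on chromosome 8 (111686519 to 111691010), Cela1 on chromosome 15 (100674421 to 100687921) and Pnlip on chromosome 19 (58652498 to 58681788). The microRNA gene Mir7076 overlaps Ctrb1, and no annotated gene overlaps the other enzyme genes. The 250 bases before the RefSeq transcription start are shown for the 3 tested Reg genes, which varied together between libraries, and for the 3 zymogen genes with the clearest contrast between libraries (RefSeq, GRCm38.p6, each written along the gene's own strand). Capitals mark, on either strand, TTTCCCA, the part of the PTF1 element that the RBPJ-type subunit contacts, TTCNNNGAA, the palindrome bound by STAT factors, and TATAAA.
Reg1, chr6:78425733-78425982, plus strand: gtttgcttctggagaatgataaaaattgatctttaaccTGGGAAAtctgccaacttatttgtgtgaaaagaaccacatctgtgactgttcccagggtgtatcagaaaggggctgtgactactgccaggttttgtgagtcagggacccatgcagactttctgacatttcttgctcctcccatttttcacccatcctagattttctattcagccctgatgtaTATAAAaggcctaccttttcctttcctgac
Reg3b, chr6:78370635-78370884, plus strand: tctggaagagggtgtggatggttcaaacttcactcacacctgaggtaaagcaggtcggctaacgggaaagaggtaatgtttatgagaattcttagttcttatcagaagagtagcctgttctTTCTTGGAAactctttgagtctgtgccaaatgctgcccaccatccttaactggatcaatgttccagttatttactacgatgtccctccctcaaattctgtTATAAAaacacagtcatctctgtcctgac
Reg3g, chr6:78468875-78469124, minus strand: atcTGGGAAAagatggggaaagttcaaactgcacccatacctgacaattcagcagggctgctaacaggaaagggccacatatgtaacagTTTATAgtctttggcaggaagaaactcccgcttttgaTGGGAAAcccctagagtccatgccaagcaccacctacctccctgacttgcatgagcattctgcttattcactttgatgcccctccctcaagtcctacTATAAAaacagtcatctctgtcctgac
Prss2, chr6:41521526-41521775, plus strand: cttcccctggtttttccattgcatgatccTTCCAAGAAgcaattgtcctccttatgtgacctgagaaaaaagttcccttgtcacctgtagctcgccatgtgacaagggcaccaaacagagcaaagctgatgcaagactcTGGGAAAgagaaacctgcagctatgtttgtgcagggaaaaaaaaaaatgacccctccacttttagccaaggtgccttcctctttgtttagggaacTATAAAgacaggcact
Cpa1, chr6:30638968-30639217, plus strand: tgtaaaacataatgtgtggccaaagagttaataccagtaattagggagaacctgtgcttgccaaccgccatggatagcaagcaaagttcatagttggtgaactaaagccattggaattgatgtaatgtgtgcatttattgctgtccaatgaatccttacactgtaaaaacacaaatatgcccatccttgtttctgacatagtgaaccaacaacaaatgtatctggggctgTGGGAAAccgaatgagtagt
Ctrb1, chr8:111691011-111691260, minus strand: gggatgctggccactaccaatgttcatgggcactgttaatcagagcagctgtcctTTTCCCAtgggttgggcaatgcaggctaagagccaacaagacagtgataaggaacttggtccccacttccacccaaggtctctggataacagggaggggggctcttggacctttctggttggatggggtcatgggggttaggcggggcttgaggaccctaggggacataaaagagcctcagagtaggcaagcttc
Promoter sequences were found for all 10 members. The RefSeq starts used for Reg1, Reg2 and Pnlip lie inside the GENCODE genes, well downstream of their annotated starts. That of Reg3b also lies inside its gene but nearer to the annotated start (window end 78370884, gene start 78370657). The starts used for the other 6 members lie close to the annotated ones. TTTCCCA, read on both strands, was present in 5 of these 10 windows (Reg1, Reg3g, Prss2, Cpa1 and Ctrb1), against 6.82% of the 32851 promoter windows of the same length in the table. TATAAA was present in 7 of 10 against 12.4%, TTCNNNGAA in 2 of 10 (Reg3b and Prss2) against 7.02%, and the E-box CANNTG, the other part of the PTF1 element, in 9 of 10 against 66.2%. The Reg3b and Reg3g windows aligned with 173 identical bases (69.2% of 250) and those of Reg1 and Reg2 with 156 (62.4%). These matches describe letters in a short window, and binding was not measured.

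Per transcript length, Reg3b, Reg1, Reg3g and Cela1 were the most abundant members in both ages. The 3 Reg genes averaged lower in old tumors without passing the threshold. On the TPM scale (transcripts-per-million, which corrects for transcript length), Reg3b averaged 16.6 ± 16.0 in old and 76.4 ± 71.8 in young tumors (SD, n = 6 each). Reg1 averaged 12.1 ± 13.2 TPM in old and 57.8 ± 47.9 TPM in young tumors, and Reg3g 13.5 ± 14.0 and 45.6 ± 39.3 TPM in old and young tumors. Cela1, at 21.0 ± 5.81 TPM in old and 21.8 ± 11.7 TPM in young tumors, led the order in old tumors and came after the 3 Reg genes in young ones. Neighbours in this order differed by less than the larger of their SDs in both ages. Ctrb1 came next in young tumors, at 0.560 ± 0.586 TPM in old and 11.04 ± 11.9 TPM in young tumors. Reg2 averaged 0.0883 ± 0.139 TPM in old and 5.01 ± 5.03 TPM in young tumors, and Prss2 0.645 ± 0.613 TPM in old and 4.15 ± 4.11 TPM in young tumors. The lowest members in young tumors were Reg3a, Cpa1 and Pnlip, with means of 0.030, 0.300 and 0.105 TPM in old and 1.08, 1.01 and 0.137 TPM in young tumors. Neighbours among Ctrb1 and these 5 also differed by less than the larger of their SDs.

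Reg3b, the pancreatitis-associated protein of the mouse, ranged from 0.691 to 20.5 CPM with a median of 5.22 in old tumors, and from 11.2 to 98.6 CPM with a median of 23.3 in young tumors. Old tumor 1 was the highest old library and lay above 3 of the 6 young ones (Young tumor 1, 2 and 6), while the other 5 old libraries lay below every young library. The log2 fold change, old over young, was -2.36 with an SE of 0.71 (adjusted p = 0.0856, edgeR). Reg1, a secreted growth-associated protein of acinar cells, ranged from 0.432 to 15.7 CPM with a median of 3.20 in old tumors, and from 6.18 to 61.5 CPM with a median of 23.3 in young tumors. Old tumor 1 was again highest among old and Old tumor 5 lowest, and 4 old libraries lay below all young ones. Its log2 fold change was -2.38 with an SE of 0.75 (adjusted p = 0.0950, edgeR). Reg3g, an antibacterial lectin, ranged from 1.51 to 17.98 CPM with a median of 3.59 in old tumors, and from 2.696 to 48.0 CPM with a median of 15.7 in young tumors. The groups overlapped more here, since Young tumor 2 lay below 5 old libraries, and the log2 fold change was -1.88 with an SE of 0.70 (adjusted p = 0.150, edgeR).

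None of the 4 tested members passed an adjusted p of 0.05 with edgeR over all genes, where 2.26% of the 16013 tested genes passed, 0.793% as higher and 1.47% as lower in old tumors. Higher genes made up 35.1% of these calls, against 51.5% when scaled by total counts alone and 85.8% with limma on log2(TPM + 1). An unadjusted p under 0.05 was reached by 3 of the 4 members, all lower in old tumors, against 21.1% of all tested genes in either direction and 10.4% as lower. The tested members had a median log2 fold change of -2.12, against 0.03 for all tested genes. A single library weighed on the calls. Without Old tumor 1, Reg1, Reg3b and Reg3g all passed as lower in old tumors (log2 fold changes -3.18, -3.08 and -2.68, edgeR adjusted p = 0.0261, 0.0236 and 0.0337), where 4.17% of all tested genes passed as lower. Leaving out any other library left all 3 above the threshold, and without Young tumor 4, the highest library, the log2 fold changes were -1.94, -1.74 and -1.47. DESeq2 on all libraries called Reg1 and Reg3b (adjusted p = 0.0389 and 0.0266) but not Reg3g (adjusted p = 0.0863), with 5.32% of all genes called as lower.

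**Figure D1:**
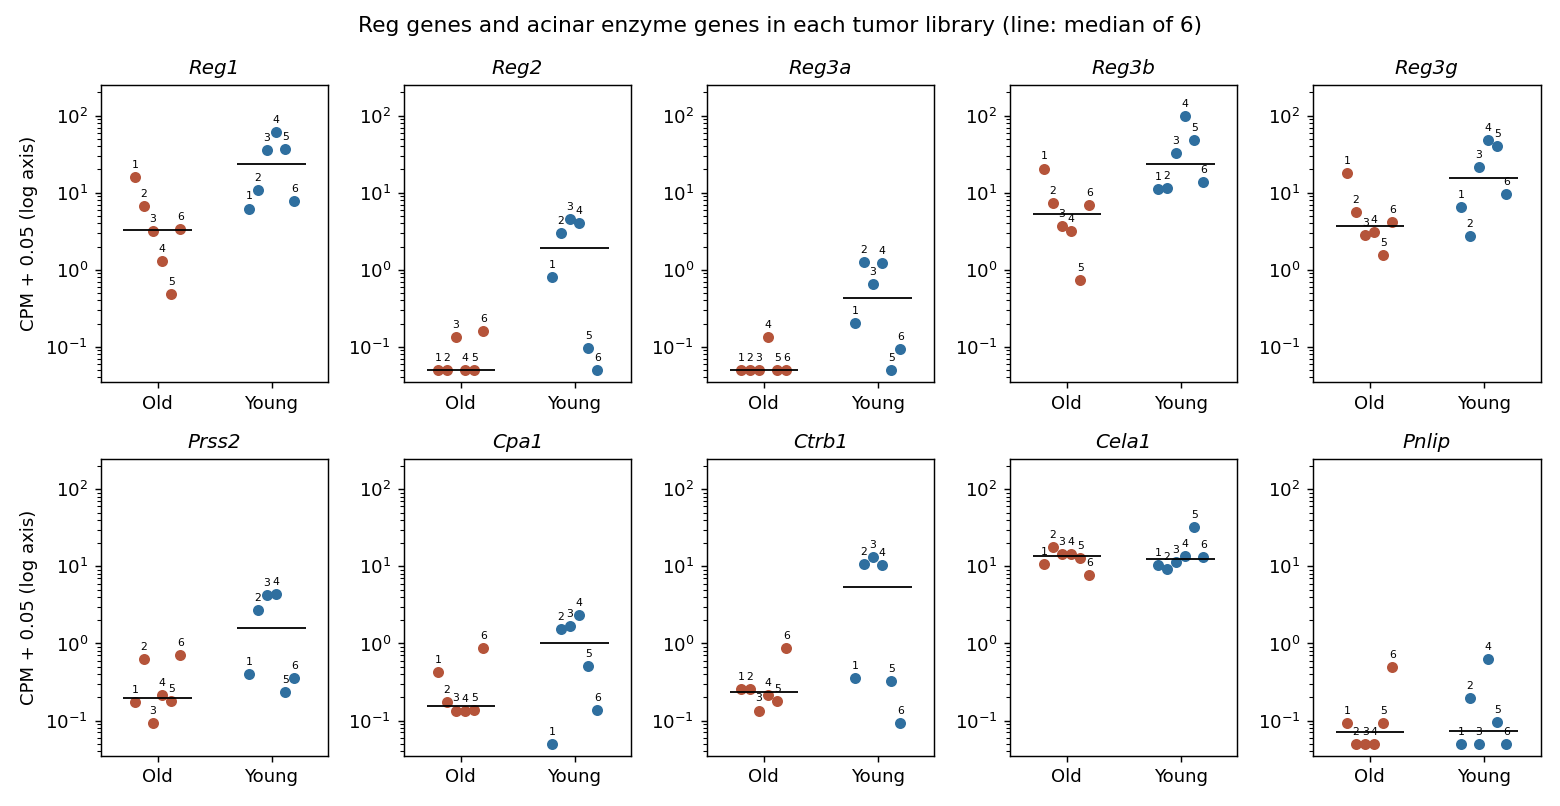
CPM plus 0.05 on a log axis for the 10 members, with the 6 old libraries left and the 6 young libraries right in each panel, replicate numbers beside the points and a line at each median. Reg1, Reg3b and Reg3g vary widely within both ages, Ctrb1 splits the young libraries into 3 above 10 CPM and 3 below 1 CPM, and Cela1 stays between 7.62 and 32.6 CPM.

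The 3 abundant Reg genes varied together from piece to piece. Across the 12 libraries, log2 CPM of Reg1 and Reg3b had a Pearson r of 0.980 and a Spearman rho of 0.986 (permutation p = 2e-05 for both, the smallest that 100000 resamples can give, adjusted over 6 pairs 6e-05 and 0.00012). Reg3b and Reg3g had an r of 0.928 and a rho of 0.888 (permutation p = 2e-05 and 0.00034, adjusted 6e-05 and 0.00102), and Reg1 and Reg3g an r of 0.901 and a rho of 0.839 (permutation p = 4e-05 and 0.00122, adjusted 8e-05 and 0.00244). The relation held within each age for Reg1 and Reg3b, with an r of 0.967 in old and 0.957 in young tumors (exact permutation p = 0.00278 and 0.0139, adjusted 0.0167 and 0.0417, n = 6 each). By rank, the rho within an age was 0.829 to 1 for the 3 Reg pairs, with exact permutation adjusted p of 0.0167 to 0.0333 in old tumors and of 0.05 to 0.07 in young tumors. In r it also held within each age for Reg3b and Reg3g, with an r of 0.943 and 0.926 in old and young tumors (exact permutation adjusted p = 0.0167 and 0.0333), while Reg1 and Reg3g had an r of 0.929 in old tumors (exact permutation adjusted p = 0.0167) and 0.851 in young tumors (exact permutation adjusted p = 0.104). Without the 2 libraries farthest from the median on Reg1, Young tumor 4 and Old tumor 5, r was 0.964 for Reg1 with Reg3b (permutation adjusted p = 0.00036) and 0.841 for Reg1 with Reg3g (permutation adjusted p = 0.00520). Without the same 2, the farthest on Reg3b as well, r was 0.909 for Reg3b with Reg3g (permutation adjusted p = 0.0009). The deposited expected counts of all 10 members were whole numbers in 12 of 12 libraries (within 1e-06), so no fractional assignment of reads between them and a related copy was seen. No relation passed for Cela1, with r of 0.221, 0.200 and 0.380 to Reg1, Reg3b and Reg3g and rho of 0.0699, 0.0490 and 0.224 (permutation adjusted p = 0.533, 0.533 and 0.371 for r, and 0.886, 0.886 and 0.726 for rho). Within old tumors its r to these 3 was -0.111, -0.246 and -0.209, and within young tumors 0.469, 0.516 and 0.670, with rho of 0.657, 0.829 and 0.886 (exact permutation adjusted p = 0.175, 0.0700 and 0.0667 for these rho). The difference between the ages was not tested.

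Reg2 and Reg3a were present almost only in young tumors, and there mainly in the pieces richest in Ctrb1, Prss2 and Cpa1. Reg2, a close relative of Reg1, had 4 counts in all over the 6 old libraries and 264 over the 6 young ones. In CPM it reached at most 0.110 in old tumors, where 4 libraries had no count, and in young tumors it ran from 0 in Young tumor 6 to 4.49 in Young tumor 3 with a median of 1.85. Young tumor 1, 2, 3 and 4 lay above every old library, and Young tumor 5 and 6 lay within the old range. A count of 0 allows up to 0.124 to 0.166 CPM, depending on the library (3 counts, covering counting error only). Reg3a, a lectin of the same subfamily as Reg3b, had 2 counts over the old libraries, both in Old tumor 4, and 69 over the young ones, between 0 in Young tumor 5 and 1.20 CPM in Young tumor 2. Both genes failed the filter. In a fit of all genes without it, Reg2 had a log2 fold change of -5.86 with an SE of 1.21 (adjusted p = 0.0406, edgeR), a value that rests on those few counts in old tumors, and 0.376% of the 29230 genes of that fit were called as lower. Reg3a did not pass there (edgeR adjusted p = 0.0708). Reg3d had 0 counts in old and 7 in young tumors, and Reg4, a family member on chromosome 3, had 15 and 7 in old and young tumors.

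Among the zymogen genes, transcripts of Ctrb1, Prss2 and Cpa1 were concentrated in 3 young pieces. Ctrb1, which encodes chymotrypsinogen B, ranged from 0.0849 to 0.828 CPM with a median of 0.187 in old tumors, and from 0.0433 to 13.3 CPM with a median of 5.37 in young tumors. Young tumor 2, 3 and 4 stood at 10.5, 13.3 and 10.4 CPM, and Young tumor 1, 5 and 6 at 0.301, 0.278 and 0.0433 CPM, inside or below the old range. Prss2, an anionic trypsinogen, ranged from 0.0424 to 0.662 CPM with a median of 0.148 in old tumors, and from 0.185 to 4.30 CPM with a median of 1.52 in young tumors, with Young tumor 2, 3 and 4 again the 3 libraries above every old one. Cpa1, carboxypeptidase A1, reached 0.828 CPM in Old tumor 6 over an old median of 0.105 CPM, and ran from 0 in Young tumor 1 to 2.28 CPM in Young tumor 4 with a median of 0.978 in young tumors. Its 3 highest libraries were the same. Pnlip, pancreatic lipase, was at the limit of detection, with 10 counts over the old libraries, 8 of them in Old tumor 6, and 17 over the young libraries, 13 of them in Young tumor 4.

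These 4 enzymes failed the filter. Fitted without it, Ctrb1, Prss2, Cpa1 and Pnlip had log2 fold changes of -4.48 (SE 1.06), -2.83 (SE 0.81), -1.95 (SE 0.85) and -0.64 (SE 1.20), and none passed (edgeR adjusted p = 0.0672, 0.116, 0.302 and 0.812). The values of Ctrb1 and Prss2 fell into separate clusters of libraries. Correlations were computed only between members that passed the filter, so none was computed for these 4. The enzyme and Reg levels were set side by side instead. The ratio of Reg1, Reg3b and Reg3g summed to Prss2, Cpa1, Ctrb1 and Pnlip summed was 1.67 in Young tumor 2, 4.75 in Young tumor 3 and 11.8 in Young tumor 4. It was 36.5, 129 and 71.8 in Young tumor 1, 5 and 6, and ran from 5.16 in Old tumor 6 to 72.3 in Old tumor 1. Low ratios also occurred in pieces poor in enzymes, such as Old tumor 5 at 6.78 with 0.389 CPM of the 4 enzymes. Outside Young tumor 2, 3 and 4 the enzymes summed to only 5 to 50 counts, so those ratios are uncertain. Young tumor 5 held 125 CPM of the 3 Reg genes with 0.972 CPM of the 4 enzymes, whereas Young tumor 2 held 24.8 CPM of the Reg genes with 14.9 CPM of the enzymes. Old tumor 1 resembled Young tumor 5, with 54.2 CPM of the Reg genes and 0.749 CPM of the 4 enzymes. Old tumor 6 held the most RNA of these 4 enzymes among the old pieces, at 2.76 CPM, with 14.2 CPM of the Reg genes. Its Cela1 level, 7.62 CPM, was the lowest of the old pieces. High Reg levels were measured both in pieces with clear RNA of these 4 enzymes and in pieces with little of it. Cela1 was not in this sum and ran otherwise, at 32.6 CPM in Young tumor 5 and 9.24 CPM in Young tumor 2.

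**Figure D2:**
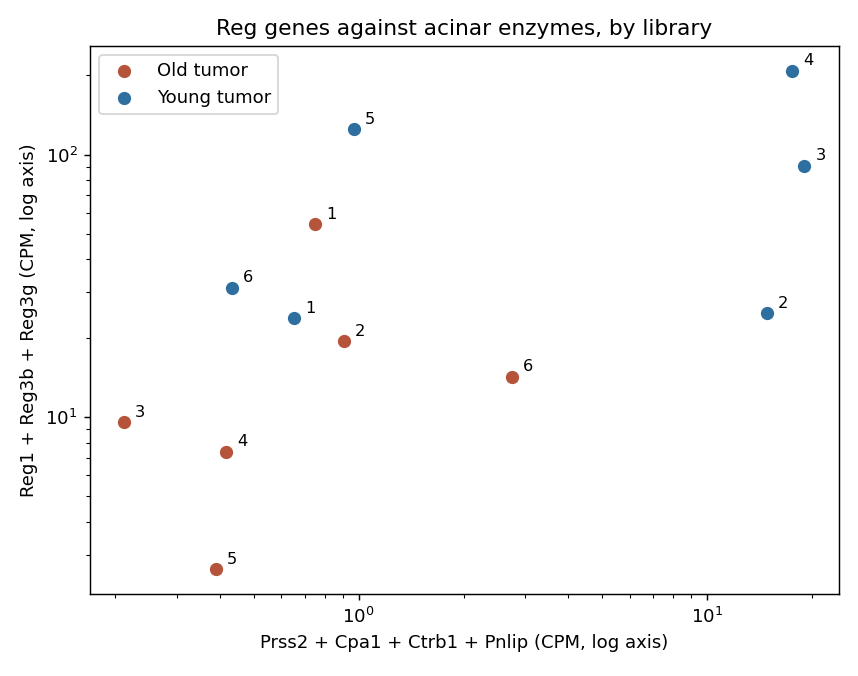
Summed CPM of Reg1, Reg3b and Reg3g (vertical, log axis) against summed CPM of Prss2, Cpa1, Ctrb1 and Pnlip (horizontal, log axis) in the 6 old and 6 young libraries, numbered by replicate. Young tumor 2, 3 and 4 lie far to the right at 14.9 to 19.1 CPM of these 4 enzymes. Young tumor 5 and Old tumor 1 are high in Reg genes at under 1 CPM of them. Cela1 is not in the sum.

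Cela1, chymotrypsin-like elastase 1, was present in every piece and was highest in another piece than the other enzymes. It ranged from 7.62 to 17.9 CPM with a median of 13.5 in old tumors, and from 9.24 to 32.6 CPM with a median of 12.2 in young tumors, and the groups overlapped almost fully. Young tumor 2, among the richest in Ctrb1, had the lowest young level of Cela1, and Young tumor 5, poor in Ctrb1, had the highest. The log2 fold change was -0.21 with an SE of 0.30 (adjusted p = 0.722, edgeR), and the sign flipped to 0.02 on log2(TPM + 1) and to 0.17 without Young tumor 5.

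Many, but not all, other genes of the acinar secretory program, listed by function, had their highest level in the pieces rich in Ctrb1. Of the 34 listed genes 33 were in the table, 10 were tested, 8 with a log2 fold change below 0 and 2 above, and none passed with edgeR (median -0.48, against 0.03 for all tested genes). Gp2, the main membrane glycoprotein of zymogen granules, ranged from 0.165 to 0.864 CPM with a median of 0.337 in old tumors, and from 0.463 to 3.03 CPM with a median of 1.23 in young tumors (adjusted p = 0.116 with edgeR for a log2 fold change of -1.70, SE 0.58). The amylase gene Amy2a5 ranged from 0 to 4.97 CPM with a median of 0.312 in old tumors, and from 0.0865 to 25.4 CPM with a median of 2.55 in young tumors (adjusted p = 0.235 with edgeR for a log2 fold change of -2.63, SE 1.22). Counts of Amy2a5 were fractional in most libraries, so its split from other amylase copies is uncertain. Try5, a trypsin gene, and Pla2g1b, the pancreatic phospholipase A2, were at -0.68 (SE 0.44) and 0.58 (SE 0.37). Of the 25 listed genes with at least 10 counts in all, 13 were highest in Young tumor 4, 5 in Young tumor 2 and 1 in Young tumor 3. Of those 5, Amy2a2, Amy2a3 and Amy2a4 had identical values and stand for 1 set of reads, which leaves 17 of 23 distinct genes highest in these 3 pieces. Of all 22338 genes with at least 10 counts, 21.3% were highest in them. These pieces were picked from the enzyme values of the same data. Some listed genes, Klk1 and Try4 among them, reach 10 counts only through Young tumor 4. The shares are therefore a description, and no enrichment was tested. Among the others, Ctrl, a chymotrypsin-like protease, was highest in Old tumor 3, Pla2g1b in Old tumor 6, Amy2a1 in Old tumor 5 and Erp27, a chaperone of the endoplasmic reticulum, in Young tumor 1. The salivary-type amylase gene Amy1 reached 4.91 CPM in old and 5.13 CPM in young tumors. Dmbt1, a mucin-like scavenger protein, and Tff2, a trefoil peptide, were far more abundant than the rest in CPM, at means of 1302 and 160 CPM in old and 1626 and 210 CPM in young tumors, and were highest in Young tumor 5. The list without these 2, a choice made after their values were seen, summed to 4.79 to 17.7 CPM in old and 5.15 to 63.9 CPM in young tumors.

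None of the 5 tested transcription factors of the acinar program passed between the ages. Ptf1a, the defining factor of the acinar lineage, had 0 counts in all 12 libraries, and its partner Rbpjl had 7 counts over the old and 20 over the young libraries. Of the 10 listed regulators and receptors 5 were tested with edgeR, all of them transcription factors (the fifth was Xbp1), 1 below 0 and 4 above. The listed secretagogue receptors failed the filter. Gata6, a factor of pancreatic and tumor epithelium, averaged 58.6 ± 4.75 CPM in old and 50.2 ± 5.29 CPM in young tumors (SD, n = 6 each), with a log2 fold change of 0.22, an SE of 0.08 and an adjusted p of 0.145 by edgeR. Gata4, its relative, was at 0.18 (SE 0.15), and Bhlha15 and Nr5a2, factors of mature acinar cells, were at 0.68 (SE 0.37) and 0.87 (SE 0.50), both from under 3 CPM in every library.

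**Figure D3:**
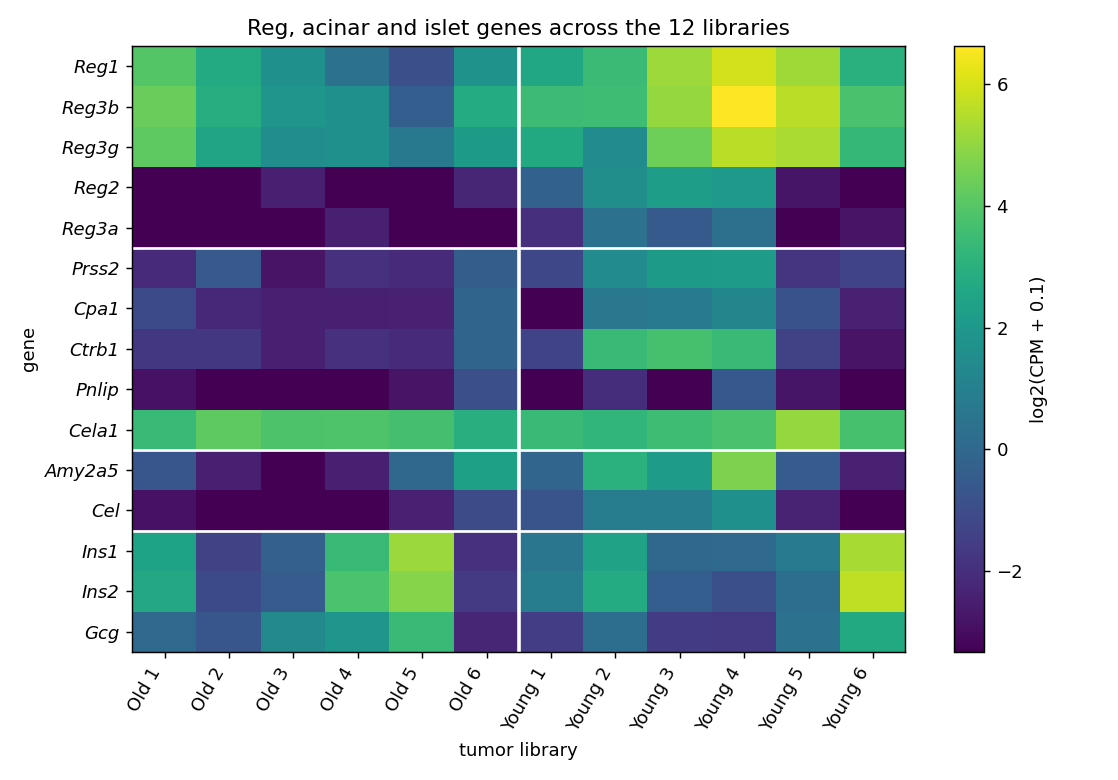
Log2(CPM + 0.1) of the 10 members, of 2 other acinar enzymes (Amy2a5 and Cel, carboxyl ester lipase) and of 3 islet hormones in each library, old libraries left and young libraries right. Ctrb1, Prss2, Cpa1 and Reg2 are brightest in Young tumor 2, 3 and 4, and the insulin genes in Old tumor 5 and Young tumor 6.

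None of the tested genes listed as acting upstream of Reg genes passed between the ages. Of the 22 listed cytokines, receptors and signalling genes 19 were tested, 6 below 0 and 13 above (median 0.04). Jak1, a kinase of cytokine receptors, averaged 153 ± 14.3 CPM in old and 135 ± 8.93 CPM in young tumors (SD, n = 6 each), with a log2 fold change of 0.18, an SE of 0.07 and an adjusted p of 0.170 by edgeR. The interleukin 22 receptor gene Il22ra1 was at 0.56 (SE 0.31), the shared receptor subunit Il6st at 0.22 (SE 0.13) and the cytokine gene Clcf1 at 0.18 (SE 0.14). Il22 itself had at most 3 counts in any library and Il17a at most 2, and neither was tested. Extl3, proposed as a receptor for Reg proteins, averaged 81.3 ± 11.9 CPM in old and 71.7 ± 8.81 CPM in young tumors (SD, n = 6 each), with a log2 fold change of 0.18, an SE of 0.10 and an adjusted p of 0.341 by edgeR. Of 18 acute-phase and injury genes 11 were tested, 9 below 0 and 2 above (median -0.22, against 0.03 for all tested genes). With edgeR 1 passed as lower and none as higher, where 1.47% and 0.793% of all tested genes did. The gene called was Tnfrsf12a, the receptor for TWEAK. It averaged 274 ± 23.7 CPM in old and 347 ± 28.8 CPM in young tumors (SD, n = 6 each). Its log2 fold change was -0.34 with an SE of 0.08 (adjusted p = 0.0425, edgeR). This call was kept when Old tumor 1 or Young tumor 3 was left out and lost with each of the other 10 libraries left out (adjusted p up to 0.0898, edgeR). S100a8 and S100a9, alarmins of neutrophils, were at -0.66 (SE 0.43) and -0.81 (SE 0.46), and haptoglobin (Hp) at 1.22 (SE 0.76). The medians of Hp ran the other way, at 9.31 CPM in old and 11.6 CPM in young tumors, with 131 CPM in its highest old library. None of the 18 ductal and metaplasia genes passed, 7 of them below 0 and 11 above. The duct genes Sox9, Krt18 and Cftr were at -0.24 (SE 0.10), -0.22 (SE 0.11) and -0.33 (SE 0.19), and the mucin gene Muc5ac was closest to the threshold, at 89.5 to 1812 CPM in old and 29.3 to 195 CPM in young tumors (adjusted p = 0.0550 with edgeR for a log2 fold change of 2.77, SE 0.70).

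**Figure D4:**
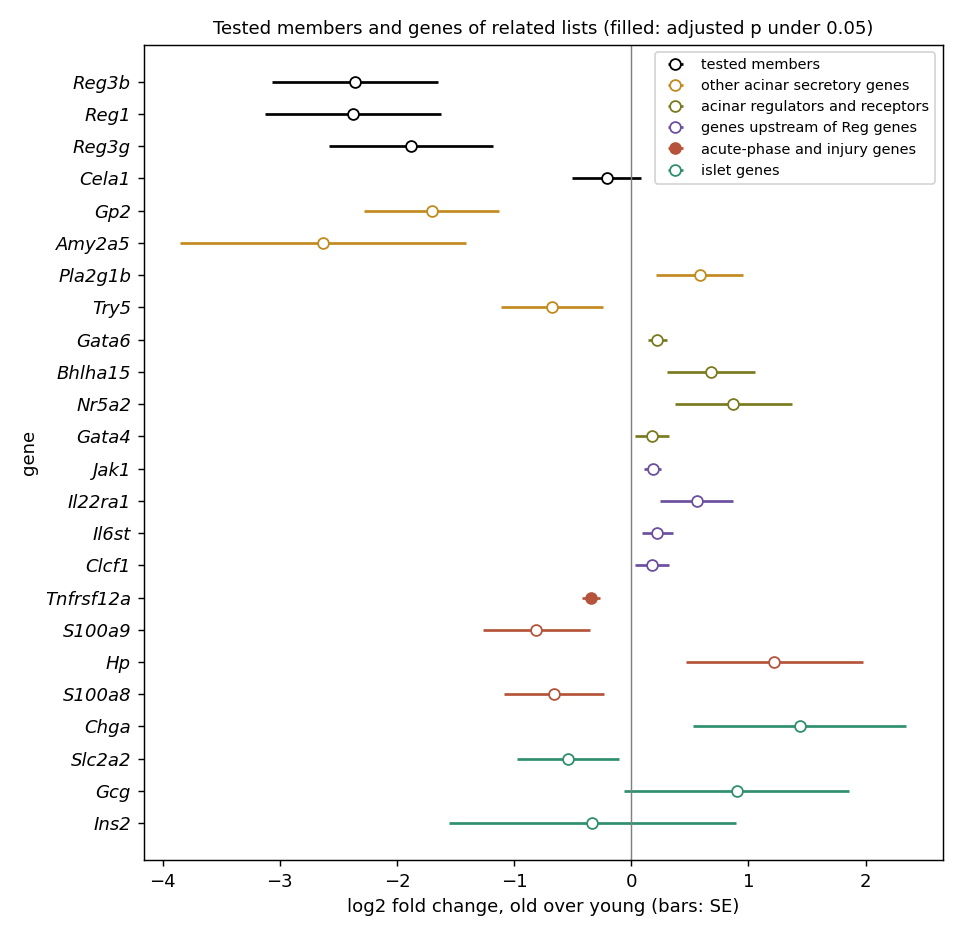
Log2 fold change, old over young, with its standard error for the 4 tested members and for the 4 genes of smallest p in each of 5 related lists. Filled points passed an adjusted p of 0.05 with edgeR, which Tnfrsf12a alone did, and Reg3b, Reg1 and Reg3g lie at -2.36, -2.38 and -1.88.

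Markers of other tissues that a piece can hold followed other libraries than the enzymes did. Ins1, Ins2 and Gcg, hormones of the islets, summed to 72.8 CPM in Old tumor 5 and 98.6 CPM in Young tumor 6, where the 4 enzymes summed to 0.389 and 0.433 CPM, and the whole islet list of 13 genes ran from 1.55 to 106 CPM in old and from 3.52 to 122 CPM in young tumors. The 8 adipocyte genes summed to 23.8 to 385 CPM with a median of 48.3 in old tumors, and to 17.5 to 31.1 CPM with a median of 27.4 in young tumors. The highest was Old tumor 1, the old library highest in Reg genes. The 8 B cell and lymphoid genes also peaked there, with 2.98 to 22.6 CPM and a median of 4.27 in old tumors, and 1.88 to 4.46 CPM and a median of 2.26 in young tumors. The 8 hepatocyte genes, 6 of them below 0, summed to 8.17 to 36.4 CPM in old and 21.3 to 80.5 CPM in young tumors, and none passed with edgeR. The hepatocyte genes of smallest p were Serpina1a, Apoa2, Serpina1b and Alb, at log2 fold changes of -3.15, -1.41, -2.10 and -1.56 (adjusted p = 0.0528, 0.0553, 0.0665 and 0.178 by edgeR). Of 14 intestinal genes 8 were tested and none passed, and Sis and Defa24 had no counts. Cdx2, Muc2, Fabp2 and Fabp1 were at -0.46, 1.04, 0.72 and -1.13. Of the adipocyte genes 3 were tested, and Plin4, a lipid droplet protein, rose (log2 fold change 2.27, SE 0.48, adjusted p = 0.0353 by edgeR), with Cidec and Fabp4 at 1.07 and 1.66. The Plin4 call was kept in 3 of 12 fits with a library left out (without Old tumor 1, Old tumor 6 or Young tumor 3). Among islet genes Chga, Slc2a2, Gcg and Ins2 were at 1.44, -0.54, 0.90 and -0.33, and the lymphoid tissue chemokine gene Cxcl13 and the B cell gene Cd79b at 2.22 and 0.64, none of them past the threshold. The part of these markers in the Reg values was not tested.

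Genes whose pattern over the 12 libraries was most like the mean log2 CPM of Reg1, Reg3b and Reg3g, among 14455 other genes of at least 1 CPM on average, were Aspa, Alkbh2, Ifitm1, Ptprd, Cpne1 and Ubald2, with Pearson r of 0.932, 0.916, 0.916, 0.907, 0.906 and 0.899. These are the highest of many values and are given as a description. None lies on chromosome 6. Ifitm1, an interferon-induced membrane protein, ranged from 8.51 to 29.4 CPM with a median of 20.2 in old tumors, and from 18.4 to 56.8 CPM with a median of 36.4 in young tumors. The same measure for Cela1, the one tested enzyme, gave Gltscr2, Rai2, Tmem205, Ifngr1, Slc25a17 and Acad8, with r of 0.851 down to 0.832. No gene of either set passed with edgeR between the ages, and Ubald2 was closest (log2 fold change -0.30, SE 0.08, adjusted p = 0.0573).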

How the data were processed

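RNA of the tumor pieces was poly(A) selected and made into strand-specific NEBNext Ultra Directional libraries, per the labels' protocols. Reads were processed with cutadapt 2.3, STAR 2.7.0d and RSEM 1.3.1 on mm10, per the submitters' processing notes. Annotation and strand setting: not given in the sources used here. Both tables were deposited by the authors, holding expected counts and TPM, with 1 column per library. RSEM divides reads among similar genes, which bears on amylase and trypsinogen copies.

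Expected counts were rounded, scaled by TMM, filtered with filterByExpr and tested with edgeR 4.0.16 (R 4.3.3; quasi-likelihood, two-sided, old over young, no block), with Benjamini-Hochberg adjustment over 16013 genes at 0.05. The SE is the size of the log2 fold change divided by the square root of F. Library sizes for CPM were scaled by TMM, and a prior count of 2 was added for log2 CPM. Correlations used permutation in scipy 1.17.1, with 100000 resamples, exact within an age. Promoters were aligned with Biopython 1.88. Coordinates are from GENCODE M21. On simulated counts of 15792 genes for old against young, the test recovered 76.1% of 2-fold and 100% of 4-fold changes, with 7.07% false calls. The changed genes were drawn from those above 1 CPM on average. The rates were not computed for the members, so they do not show that an uncalled member is unchanged.

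The members and gene lists were chosen with earlier results of these data known. Named genes are all members, the 4 of smallest p in each list described, and the 6 most alike in pattern. Others named were chosen after their values were seen. Alternatives were other scalings, DESeq2 1.42.0, other filters, limma 3.58.1 on TPM, a replicate block and each library left out. Amino acid sequences were not used here.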

Additional observations from a re-analysis of the deposited data

Results flagged for a closer look

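Cela1 in Young tumor 5 stood apart from the other young libraries on the log2 CPM scale. Its gap to the next library was 0.705 of the range of the 6, above the critical value of 0.625 of Dixon's test for 6 values. The level was 32.6 CPM there, against 9.24 to 13.4 CPM in the other 5 young libraries. Chance alone would single out about 1 in 20 such groups, and the 4 tested members gave 8 groups.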

How the results depend on the processing

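Reg1, Reg3b and Reg3g kept a log2 fold change below 0 in the 9 other settings and with each of the 12 libraries left out. Members called as lower in old tumors numbered 0 with edgeR, 2 with DESeq2 and 1 (Reg2) without a filter, and 0 to 3 with a library left out. Cela1 changed sign on log2(TPM + 1) (0.0194), on log2(TPM + 0.1) (0.0220) and ran between -0.32 and 0.17 with a library left out. On these TPM scales all genes had a median of 0.13 and 0.15, against 0.03 with edgeR as reported, and Cela1 lay below it on both. Over all genes, 127 were called higher and 235 lower. The counts were 573 and 852 with DESeq2, 41 and 110 without a filter, 291 and 48 on log2(TPM + 1), 312 and 44 on log2(TPM + 0.1), 143 lower with total counts alone and 364 lower with 1 CPM in 6 libraries. Leaving out a library gave 2 to 433 higher and 0 to 673 lower. Total counts made 51.5% of the calls higher, and log2(TPM + 0.1) 87.6%. A replicate block gave 1 higher and 0 lower call, with Reg1, Reg3b and Reg3g at -2.52, -2.33 and -1.79 (edgeR adjusted p = 0.243, 0.223 and 0.342). Same-numbered libraries deviated together with r between -0.230 and 0.139, and 1 of 6 old libraries correlated best with its own number, so the numbers were not taken as pairs. Within old tumors the correlation of Cela1 with Reg1, Reg3b and Reg3g turned to -0.111, -0.246 and -0.209, and that with Reg3g to -0.0995 without 2 libraries. The calls of Tnfrsf12a and Plin4 were lost on log2(TPM + 1) (log2 fold changes -0.21 and 1.17, adjusted p = 0.143 and 0.0542, limma) and with the block (adjusted p = 0.0881 and 0.0838, edgeR). That of Tnfrsf12a was also lost on log2(TPM + 0.1) (-0.21, adjusted p = 0.144, limma) and without a filter (adjusted p = 0.0582, edgeR). The causes were not tested. Members under about 0.1 CPM rest on 1 to 3 counts.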
